A study of Mus musculus with 12 samples.

Results

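Genes of cytochrome P450 families 1 to 3 (Cyp1, Cyp2 and Cyp3) were described in mouse liver after a DNA-damaging injection, in mice with and without the telomerase gene Tert. They were taken by symbol, as every gene whose name is Cyp1, Cyp2 or Cyp3 followed by 1 lower-case letter and a number, without pseudogene names, which gave 58 of the 49584 genes in the table. Of these, 36 reached 1 FPKM (fragments per kilobase of transcript, scaled to the library's counted reads) in at least 3 of the 12 libraries and were tested. A further 17 had reads but did not reach that level often enough, and 5 (Cyp2b23, Cyp2j7, Cyp2j12, Cyp2j13 and Cyp2w1) were at 0 in every library, which allows up to 3 reads, or between 0.0157 and 0.066 FPKM depending on the gene and library.

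RNA sequencing of whole liver gave 12 libraries in 4 groups of 3. All mice were on the C57BL/6/129/SvJ background. The groups were G1 Tert-/- mice, the first generation without the catalytic subunit of telomerase, given ENU; G1 Tert-/- mice with saline; wild-type mice with ENU; and wild-type mice with saline. ENU (N-ethyl-N-nitrosourea) is an alkylating mutagen; the dose was 150 µg for each g of mouse, put into the peritoneal cavity of age-matched animals, and livers were taken 24 h later. Tert is missing from the whole animal, so any tissue could contribute to a difference between genotypes. The labels give neither sex nor the hour of sampling, and they do not say outright that each library is a separate animal, so the p-values measure the spread between these libraries, which may be partly technical.

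Cytochrome P450 enzymes are heme proteins of the endoplasmic reticulum that insert an oxygen atom into their substrates with electrons from the reductase Por. Families 1 to 3 oxidise drugs, pollutants, steroids, fatty acids and bile acids, and in liver many are made by hepatocytes near the central vein. Their genes sit in tandem arrays and are controlled by the nuclear receptors CAR (Nr1i3) and PXR (Nr1i2), the aryl hydrocarbon receptor, growth hormone pulses that differ between the sexes, and the circadian clock.

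The promoters of members that changed, and of 1 barely detected near-copy, are shown because they let the sequences be set beside the levels below. Each is the 250 bases before the annotated start in RefSeq (GRCm38.p6), printed 5′ to 3′ on the gene's strand. Capitals mark 4 motifs, found on either strand. The TATA box was searched as TATAAA. A half-site of nuclear receptors was searched as AGGTCA. The core of HNF4A sites was searched as CAAAGTCCA, and the half-site of HNF1 as GTTAAT. No marked match overlaps another. Cyp2a4 lies at chr7:26306942-26307191 (plus strand), Cyp2a5 at chr7:26835089-26835338 (plus strand), Cyp2a22 at chr7:26939387-26939636 (minus strand), Cyp2c29 at chr19:39286835-39287084 (plus strand), Cyp2c67 at chr19:39649043-39649292 (minus strand) and Cyp2d26 at chr15:82794246-82794495 (minus strand).
Cyp2a4: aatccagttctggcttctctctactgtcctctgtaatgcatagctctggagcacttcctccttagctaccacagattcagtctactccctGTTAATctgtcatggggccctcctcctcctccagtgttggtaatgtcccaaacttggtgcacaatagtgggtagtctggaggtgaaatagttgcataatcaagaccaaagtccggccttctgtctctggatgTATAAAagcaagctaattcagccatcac
Cyp2a5: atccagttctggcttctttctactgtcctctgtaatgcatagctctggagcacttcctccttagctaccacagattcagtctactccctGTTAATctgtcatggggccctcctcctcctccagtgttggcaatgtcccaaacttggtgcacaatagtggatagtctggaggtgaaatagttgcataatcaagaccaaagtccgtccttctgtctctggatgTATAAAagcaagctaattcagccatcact
Cyp2a22: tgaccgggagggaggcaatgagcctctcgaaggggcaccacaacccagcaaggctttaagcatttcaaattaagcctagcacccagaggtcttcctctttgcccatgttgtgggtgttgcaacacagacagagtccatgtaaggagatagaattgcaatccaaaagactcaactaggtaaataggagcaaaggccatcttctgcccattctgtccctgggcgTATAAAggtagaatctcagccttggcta
Cyp2c29: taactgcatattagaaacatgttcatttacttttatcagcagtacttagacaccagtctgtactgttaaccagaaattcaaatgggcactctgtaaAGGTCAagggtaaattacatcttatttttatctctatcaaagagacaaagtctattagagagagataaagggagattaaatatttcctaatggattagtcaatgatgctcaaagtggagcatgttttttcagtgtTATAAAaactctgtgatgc
Cyp2c67: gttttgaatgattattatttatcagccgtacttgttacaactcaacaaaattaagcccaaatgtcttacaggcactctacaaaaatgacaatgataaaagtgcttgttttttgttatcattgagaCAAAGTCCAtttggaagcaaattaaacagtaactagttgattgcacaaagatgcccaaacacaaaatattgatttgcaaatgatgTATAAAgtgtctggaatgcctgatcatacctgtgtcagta
Cyp2d26: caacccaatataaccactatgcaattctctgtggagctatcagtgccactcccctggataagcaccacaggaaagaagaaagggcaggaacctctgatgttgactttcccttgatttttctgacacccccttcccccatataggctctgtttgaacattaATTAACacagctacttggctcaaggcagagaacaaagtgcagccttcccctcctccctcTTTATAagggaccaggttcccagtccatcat

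The Cyp2a4 and Cyp2a5 windows were 98.4% identical, with 4 of 249 aligned bases different, yet the genes differed widely in level. Cyp2a5 averaged 651 FPKM over the 12 libraries and Cyp2a4 reached at most 0.830 FPKM. The Cyp2c29 and Cyp2c67 windows were 68.8% identical over 221 aligned bases. Promoters were available for 50 of the 58 members and 30 of the 36 tested ones. A member was counted if any of its annotated promoters held the letters, while the shares of all promoters are per window. Over both strands, TATAAA occurred in 17 of these 30 (56.7%) and in 12.4% of all 32851 promoters of the same length. CAAAGTCCA occurred in 6 (20%), against 0.384% of all promoters. The half-site AGGTCA was found in 7 (23.3%, against 14.0% of all), AGTTCA in 4 (13.3%, against 11.8%), GTTAAT in 5 (16.7%, against 6.43%) and the aryl hydrocarbon receptor core GCGTG in 3 (10%, against 28.2%). The letters TTATGTAA and TTACGTAA (D-box), and TTCNNNGAA (STAT core), were in no window of the 30 members and in 0.819%, 0.113% and 7.02% of all promoters. Tandem copies share sequence, so these shares are not over independent promoters.

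Among the members, 51 lay in 6 groups on a chromosome with gaps of at most 1 Mb, and 7 stood alone. The largest held 14 Cyp2c genes over 1180.3 kb of chromosome 19, and the next held 13 genes of the Cyp2a, Cyp2b, Cyp2f, Cyp2g, Cyp2s and Cyp2t subfamilies over 1356.2 kb of chromosome 7. The copies resemble each other in transcript sequence as well. For 19 of the 36 tested members, over 10% of 50-base windows of their transcripts also occurred in another gene, so their reads could be split or dropped and their levels are uncertain. Cyp2c40 shared 72.1% of its windows with Cyp2c69 or other genes, Cyp2c67 52.8%, Cyp2a5 40.8% and Cyp2a12 27.5%, while Cyp2c29 shared 2.08%, and Cyp2c70, Cyp2j9 and Cyp2r1 shared none.

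Between 30053737 and 43680169 reads per library were recovered from the FPKM values, and Cyp1, Cyp2 and Cyp3 genes took 1.40 to 2.20% of them. Tert-/- saline replicate 2 stood apart in the whole table. It detected 17486 genes, put 29.5% of its reads into 20 genes and had a median-ratio scaling factor of 0.654. The other libraries detected 19576 to 20310 genes, put 17.4 to 21.7% into their top 20 and had factors of 0.994 to 1.127. Tert itself was at 1.11 to 1.62 FPKM in Tert-/- ENU, 0.304 to 0.734 in Tert-/- saline, 4.70 to 6.23 in wild-type ENU and 1.61 to 3.22 in wild-type saline libraries, so each Tert-/- library was below every wild-type library of its treatment but still had reads in the gene. Hepatocyte markers were abundant in every library (8 of 8 tested), and the kidney list was near 0 (summed level at most 0.147 FPKM, 2 of 5 genes at 0 everywhere), as was the pancreas acinar list (at most 2.07 FPKM, 4 of 5 at 0).

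**Figure D1:**
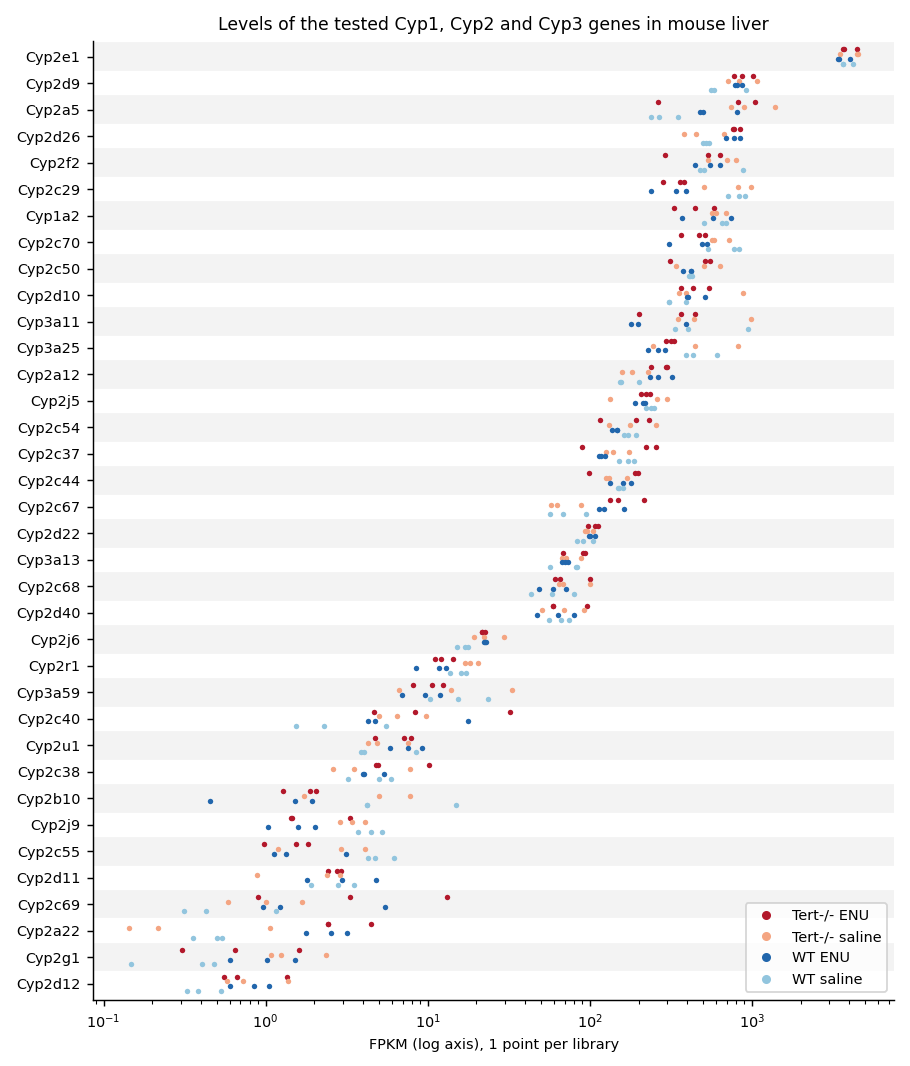
FPKM (log axis) of the 36 tested members in each of the 12 libraries, 1 point per library, with the 4 groups in colour and the most abundant gene at the top. Cyp2e1 lies between 3393 and 4517 FPKM in every library, and the points of Cyp2c69, Cyp2b10 and Cyp2a22 spread the most.

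Cyp2e1, which oxidises ethanol, acetaminophen and small solvents, was the most abundant member and among the steadiest. It had 3699, 3643 and 4455 FPKM in Tert-/- ENU, 4437, 3475 and 4517 in Tert-/- saline, 3393, 4054 and 3448 in wild-type ENU, and 4187, 3648 and 3669 in wild-type saline libraries. The groups overlapped, the highest library was 1.33 times the lowest, and Cyp2e1 made up 34.0% of the summed FPKM of all members. No other member exceeded 1385 FPKM in any library. Of the 36 tested, 18 averaged at least 100 FPKM, 7 lay between 10 and 100, and 11 were under 10.

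Below Cyp2e1 the order of mean FPKM was Cyp2d9 (818), Cyp2a5 (651), Cyp2d26 (647), Cyp2f2 (583), Cyp2c29 (566), Cyp1a2 (563) and Cyp2c70 (559). Cyp2d9 is a testosterone 16α-hydroxylase of male liver, Cyp2f2 activates naphthalene, Cyp1a2 oxidises caffeine and arylamines, and Cyp2c70 makes the muricholic acids of mouse bile. The ranges of these neighbours over the libraries overlap, and differences between genes within a library were not tested. The order also depends on the length each value was divided by: FPKM values matched the mean length of a gene's annotated transcripts, 958 bases for Cyp2a5, and per kilobase of the longest coding transcript (2013 bases) Cyp2a5 moved from rank 3 to rank 11. Comparisons of 1 gene across libraries are not touched by this.

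Some members known from other settings were near absent here. The aryl hydrocarbon receptor target Cyp1a1 stayed under 0.951 FPKM and Cyp1b1 under 0.286 FPKM, while Cyp1a2, in the same receptor's target group, averaged 563 FPKM. The female-predominant members Cyp2a4, Cyp2b9, Cyp2b13, Cyp3a16 and Cyp3a44 reached at most 0.830 FPKM. In the same libraries 4 Y-linked transcripts (Ddx3y, Uty, Eif2s3y and Kdm5d) were above 0 in 12 of 12, at 1.15 to 49.3 FPKM, and Xist was at most 0.0868 FPKM. Cyp2c39, a retinoic acid hydroxylase, was the untested member closest to the limit, with at least 1 FPKM in 2 libraries and 2.28 FPKM at most. Among tested members Cyp2d12 and Cyp2g1 lay closest to it on the other side, at means of 0.750 and 0.953 FPKM.

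**Figure D2:**
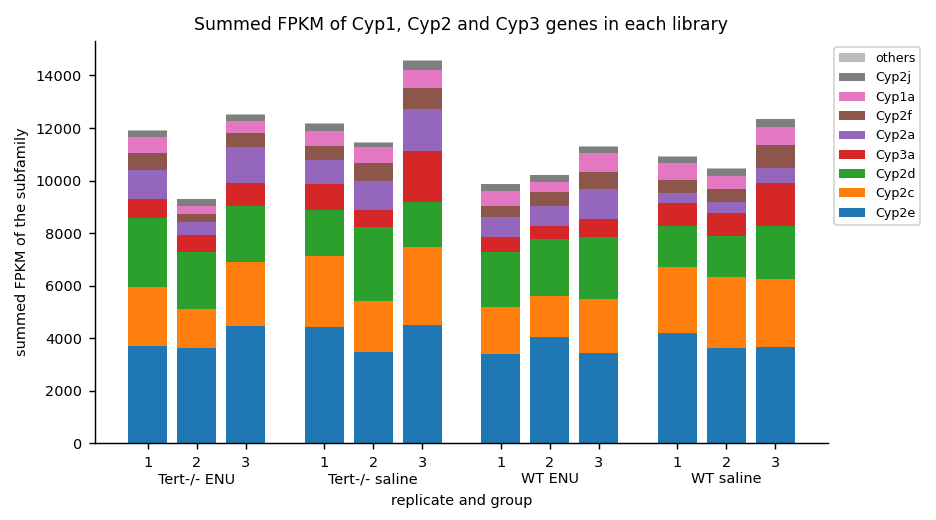
Summed FPKM of each subfamily, stacked, in each library (y axis, FPKM; x axis, replicate within group). The totals run from 9308 FPKM in Tert-/- ENU replicate 2 to 14591 FPKM in Tert-/- saline replicate 3, and Cyp2e, Cyp2c and Cyp2d make up most of each bar.

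Summed over all members, the level was 11249 ± 1709.6 FPKM in Tert-/- ENU, 12749 ± 1634 in Tert-/- saline, 10468 ± 742 in wild-type ENU and 11258 ± 977 in wild-type saline livers (SD, n = 3 each). These ranges overlap. The subfamilies did not all go with the total. Cyp2d genes summed to 2309.9 ± 256 FPKM in Tert-/- ENU against 2091 ± 629.7 in Tert-/- saline, and to 2199.8 ± 126 FPKM in wild-type ENU against 1708 ± 274 in wild-type saline. Cyp3a genes summed to 746 ± 128 against 1192 ± 651 FPKM in Tert-/- livers and to 597 ± 92.2 against 1129.8 ± 439 FPKM in wild-type livers, ENU first. Replicate 3 of each saline group was high for Cyp3a, at 1922 FPKM in Tert-/- and 1637 FPKM in wild-type livers. No test is given for these sums, because the members were chosen with earlier results known.

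The first comparison asked how ENU changed these genes, averaged over the genotypes. Of the 36 tested members 4 rose and 6 fell by limma at an adjusted p under 0.05, against 14.1% of all tested genes in either direction (11.3% higher and 2.73% lower). The median log2 difference was 0.01 over the members and 0.17 over all genes. The estimate was above 0 for 18 of 36 members, and for 10 of 36 after median-ratio rescaling of the libraries, which brought the median of all genes to 0. The all-gene split moved with the scale: 6.08% were called higher and 4.9% lower after median-ratio rescaling, and 7.34% and 6.44% after quantile normalization. That rescaling also took the all-gene median close to 0 for ENU in Tert-/- mice (0.24 as deposited), for genotype in saline (-0.19) and for genotype averaged over treatments (-0.11), so small differences near those sizes depend on the scale. In whole liver, fewer cells of a type and less RNA per cell cannot be told apart.

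**Figure D3:**
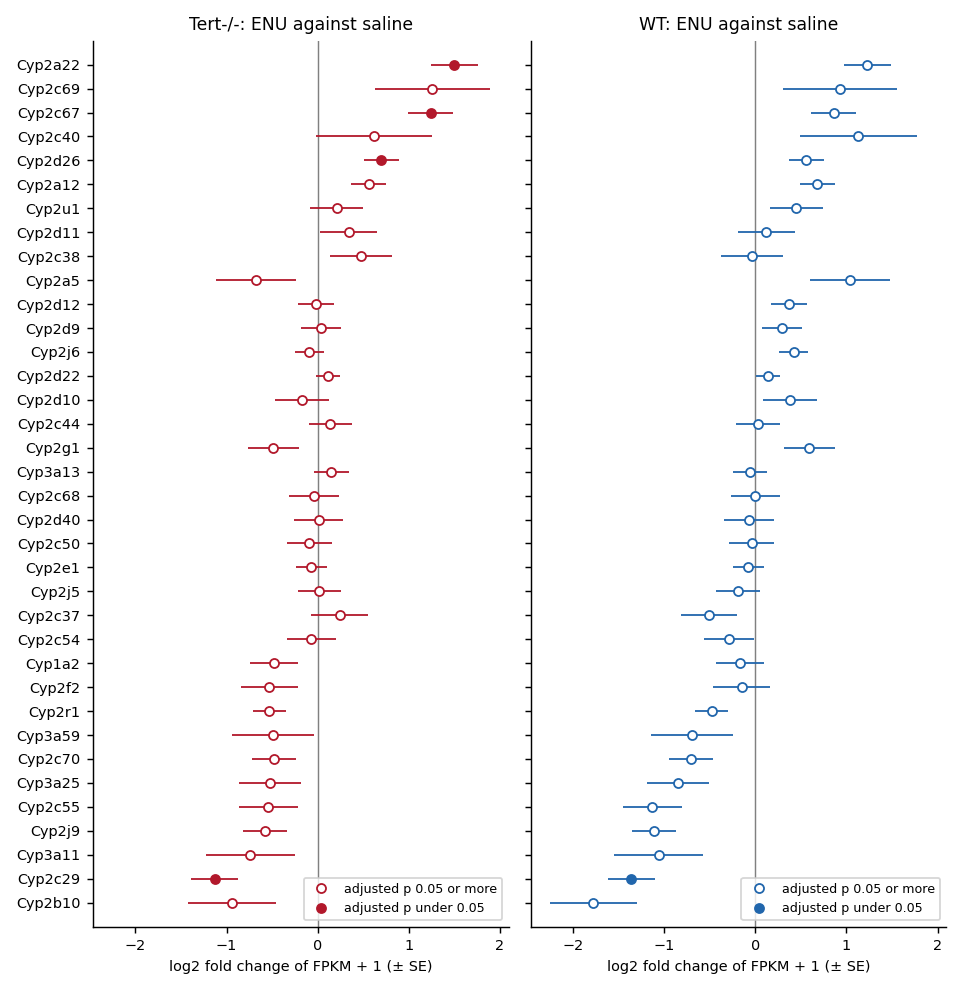
Log2 fold change of FPKM + 1 (x axis, ± SE) after ENU against saline for each tested member, in Tert-/- livers (left) and wild-type livers (right), ordered by the average; filled points pass an adjusted p of 0.05 by limma. Cyp2c29 is filled on both sides, and Cyp2a22, Cyp2c67 and Cyp2d26 on the Tert-/- side.

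Cyp2c29, a phenobarbital-inducible enzyme that also epoxidises arachidonic acid, fell in both genotypes. It had 383, 283 and 362 FPKM in Tert-/- ENU livers, against 827, 508 and 987 FPKM in Tert-/- saline livers. In wild-type livers it had 341, 240 and 393 FPKM after ENU, against 913, 839 and 712 FPKM after saline. Every ENU library lay below every saline library. By limma, log2 fold changes were -1.13 in Tert-/- (SE 0.26, adjusted p = 0.0217) and -1.36 in wild type (SE 0.26, adjusted p = 0.0277); the averaged one was -1.24 (SE 0.18, adjusted p = 0.00174). The averaged call held in 21 of 21 alternative settings. The single-genotype calls were less firm: 15 of 22 settings kept the call in Tert-/- (adjusted p 0.000745 to 0.151) and 13 of 22 kept it in wild type (0.000299 to 0.523). In wild type the call ended when any of the 6 libraries compared, or Tert-/- ENU replicate 3, was left out, with log2 values of -1.15 to -1.51. In Tert-/- it ended without any of the ENU replicates (-1.0 to -1.22). Both single-genotype calls also ended with no filter on low values and with the clock covariate given below. The Tert-/- call ended as well under quantile normalization and in a fit of only the groups compared.

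The 5 genes of the whole table whose log2(FPKM + 1) followed Cyp2c29 most closely over the 12 libraries were Park2 (Pearson r = 0.952), Pard3b (0.949), Atg10 (0.924), Wwox (0.908) and Cpq (0.907). The libraries share depth and group, and Cyp2c29 itself split by treatment, so these correlations are a description. All 5 have loci of 288.6 to 1223 kb; the table gives Cyp2c29 a locus of 61.3 kb, at chr19:39269405-39330713. The RefSeq start used for the promoter above lies 17.7 kb inside that locus, so the sources disagree on where the gene begins and its length is uncertain. After ENU, Atg10, an autophagy gene, had a log2 fold change of -1.11 (SE 0.14) in Tert-/- and -1.04 (SE 0.14) in wild type, and Wwox had -0.83 (SE 0.22) and -0.87 (SE 0.22, not past the threshold in wild type, adjusted p = 0.106 by limma). Among the 36 tested members, whose loci ran from 4.14 to 73.5 kb, Spearman's rho between locus length and the averaged ENU log2 difference was -0.21; over all 12434 tested genes it was 0.11.

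Cyp2c67, a neighbour of Cyp2c29 at 278.1 kb in the same array, went the other way. It had 149, 134 and 216 FPKM in Tert-/- ENU livers, against 87.8, 57.4 and 62.9 FPKM in Tert-/- saline livers. In wild-type livers it had 113, 122.6 and 163 FPKM after ENU, against 57.1, 68.4 and 95.2 FPKM after saline. No ENU library overlapped the saline libraries of its genotype. The averaged log2 fold change was 1.05 (SE 0.18, adjusted p = 0.00399 by limma), past the threshold in 21 of 21 settings. It was 1.24 (SE 0.25, adjusted p = 0.0136) in Tert-/- mice, where the call ended without Tert-/- ENU replicate 3 (log2 1.04) and in a fit of those groups alone (adjusted p = 0.108), and 0.86 (SE 0.25, adjusted p = 0.165) in wild type.

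Cyp2a22 rose most on the log2 scale but from a low level. It had 2.42, 2.43 and 4.47 FPKM in Tert-/- ENU livers, against 0.217, 0.144 and 1.06 FPKM in Tert-/- saline livers, and 1.76, 2.53 and 3.18 FPKM in wild-type ENU livers, against 0.502, 0.358 and 0.542 FPKM in wild-type saline livers. All ENU libraries were higher than all saline libraries. These values rest on 12 to 508 reads. Among the saline libraries only Tert-/- replicate 3 reached 1 FPKM, so Cyp2a22 passed the filter through its ENU libraries. Its place among the members that rose carries this limit. The averaged log2 fold change was 1.36 (SE 0.18, adjusted p = 0.00122 by limma), with 21 of 21 settings past the threshold. It was 1.5 (SE 0.26, adjusted p = 0.00755) in Tert-/- and 1.23 (SE 0.26, adjusted p = 0.0511) in wild type. A pseudocount of 1 holds down the fold of such low genes, and the ratio of mean FPKM was 6.57 in Tert-/- and 5.34 in wild type.

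Cyp2a12, a testosterone 7α-hydroxylase in the same array, had 301, 240.3 and 293 FPKM in Tert-/- ENU against 157, 182 and 229.8 in Tert-/- saline livers, and 234, 262 and 323 FPKM in wild-type ENU against 156, 154 and 201 in wild-type saline livers. The averaged log2 fold change was 0.62 (SE 0.13, adjusted p = 0.0130 by limma). Cyp2d26 had 840, 776 and 763 FPKM in Tert-/- ENU against 383, 670 and 452 in Tert-/- saline livers, and 691, 774 and 847 FPKM in wild-type ENU against 522, 499.7 and 541 in wild-type saline livers. Both genes were without overlap within each genotype. For Cyp2d26 the averaged log2 fold change was 0.63 by limma (SE 0.13, adjusted p = 0.0119), and in Tert-/- it was 0.70 (SE 0.19, adjusted p = 0.0390), a call that held in 6 of 22 settings. It ended without any library but Tert-/- saline replicate 2 or 3 (log2 0.53 to 0.73). The averaged calls of Cyp2a12 and Cyp2d26 ended under median-ratio rescaling and in the test on recovered reads, where their log2 values were at the lowest 0.41 and 0.42. Both settings use the same median-ratio factors, so they are not separate checks of the scale.

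Cyp2b10, the classic CAR target that phenobarbital induces, was low throughout and lower after ENU. It had 2.04, 1.28 and 1.88 FPKM in Tert-/- ENU livers, against 1.73, 4.98 and 7.73 FPKM in Tert-/- saline livers. In wild-type livers it had 1.51, 0.451 and 1.93 FPKM after ENU, against 14.9, 4.21 and 4.25 FPKM after saline. The Tert-/- groups overlapped and the wild-type groups did not, with wild-type saline replicate 1 far above its fellows. The averaged log2 fold change was -1.36 (SE 0.34, adjusted p = 0.0237 by limma), and the call held in 17 of 21 settings. It ended with no filter on low values (adjusted p = 0.067) and without Tert-/- ENU replicate 1 or 2 or wild-type ENU replicate 2 (values over all settings -2.08 to -1.1).

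Of the other members that fell, Cyp2j9 had 1.47, 3.32 and 1.44 FPKM in Tert-/- ENU against 3.39, 2.87 and 4.12 in Tert-/- saline livers, and 2.01, 1.59 and 1.03 FPKM in wild-type ENU against 5.21, 4.48 and 3.69 in wild-type saline livers. The Tert-/- groups overlapped through ENU replicate 2, and the wild-type groups did not overlap. Its averaged log2 fold change was -0.85 (SE 0.17, adjusted p = 0.0102 by limma), past the threshold in 21 of 21 settings. Cyp2r1, a vitamin D 25-hydroxylase, averaged 12.6 ± 1.69 against 18.6 ± 1.76 FPKM in Tert-/- livers and 11.1 ± 2.35 against 15.6 ± 1.78 FPKM in wild-type livers, ENU first (SD, n = 3 each; averaged log2 fold change -0.50, SE 0.13, adjusted p = 0.0239 by limma). Its ENU and saline libraries did not overlap in either genotype.

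Cyp2c70 averaged 451 ± 75.3 FPKM in Tert-/- ENU against 628 ± 85.5 in Tert-/- saline livers, and 442 ± 118 FPKM in wild-type ENU against 716 ± 155 in wild-type saline livers (SD, n = 3 each; averaged log2 fold change -0.60, SE 0.17, adjusted p = 0.0375 by limma). Cyp2c55, an enzyme that CAR and PXR activators induce, averaged 1.45 ± 0.425 FPKM in Tert-/- ENU against 2.73 ± 1.45 in Tert-/- saline livers, and 1.87 ± 1.11 FPKM in wild-type ENU against 5.06 ± 1.0 in wild-type saline livers (averaged log2 fold change -0.84, SE 0.23, adjusted p = 0.0323 by limma). These last calls were less firm. That of Cyp2c70 held in 10 of 21 settings and ended without any of the Tert-/- ENU replicates, Tert-/- saline replicate 1, wild-type ENU replicate 1 or 2, or wild-type saline replicate 2 or 3 (-0.65 to -0.47). That of Cyp2c55 also held in 10 of 21 and ended without any Tert-/- ENU or wild-type saline replicate, Tert-/- saline replicate 1, or wild-type ENU replicate 2 or 3 (-0.89 to -0.74). That of Cyp2r1 held in 15 of 21 and ended without Tert-/- ENU replicate 1 or 3, wild-type ENU replicate 3, or wild-type saline replicate 1 or 2 (-0.49 to -0.42).

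**Figure D4:**
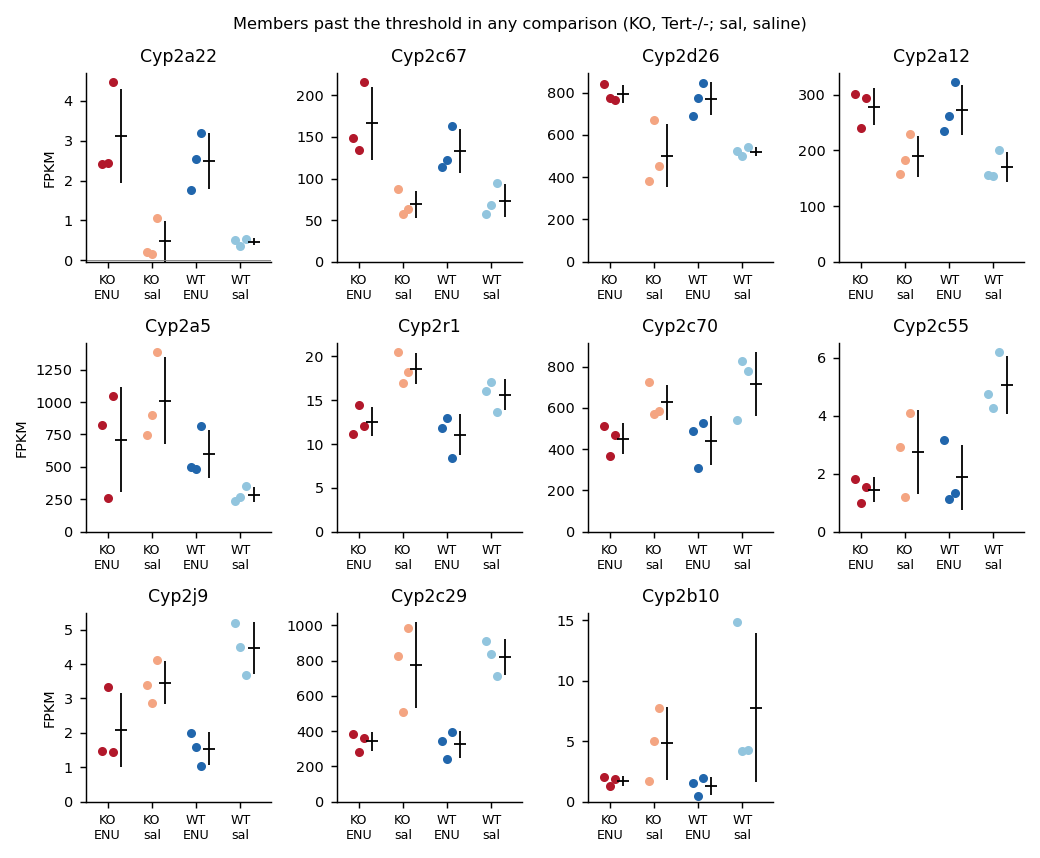
FPKM (y axis, from 0) of the 11 members past the threshold in any comparison, by group; coloured points are libraries in order of replicate and black bars are the mean ± SD of 3. The ENU points of Cyp2c29 lie between 240 and 393 FPKM, under all of its saline points, and those of Cyp2a22 lie above all of its saline points.

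Taken by genotype, ENU moved few members past the threshold. In Tert-/- livers 3 rose (Cyp2a22, Cyp2c67 and Cyp2d26) and 1 fell (Cyp2c29) of 36, or 11.1%, where 9.58% of all tested genes were called (8.13% higher and 1.45% lower). In wild-type livers 0 rose and 1 fell (Cyp2c29), where 0.997% of all genes were called (0.748% higher and 0.249% lower). Without Tert-/- saline replicate 2, which enters the wild-type test only through the shared spread, 10 wild-type members passed, 5 in each direction, where all genes gave 10.6%. Fitting the wild-type groups alone gave 11 members, where all genes gave 8.94%. Members whose ENU and saline libraries did not overlap numbered 4 higher and 3 lower in Tert-/- livers, where all genes gave 24.5% and 6.35%, and 9 higher and 10 lower in wild-type livers, where all genes gave 27% and 8.33%. The lower 10 in wild type were 27.8% of the tested members.

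None of the 4 tested Cyp3a genes passed in any ENU comparison. Cyp3a11, the main PXR-responsive member and the mouse counterpart of human CYP3A4, had 366, 201 and 443 FPKM in Tert-/- ENU livers, against 437, 348 and 991 FPKM in Tert-/- saline livers. In wild-type livers it had 198, 181 and 391 FPKM after ENU, against 403, 337 and 946 FPKM after saline. The groups overlapped in each genotype. Its log2 difference was -0.74 (SE 0.49, adjusted p = 0.326 by limma) in Tert-/-, -1.06 (SE 0.49, adjusted p = 0.394) in wild type and -0.90 (SE 0.34, adjusted p = 0.101) averaged. Cyp3a25 had an averaged value of -0.68 (SE 0.24, adjusted p = 0.0786 by limma) and Cyp3a59 of -0.59 (SE 0.32, adjusted p = 0.230), and Cyp3a13 had 0.05 (SE 0.13), which was below 0 under median-ratio rescaling, quantile normalization and voom on recovered reads. Cyp2c40 and Cyp2c69, which share most of their transcript windows, had averaged estimates of 0.88 (SE 0.45) and 1.1 (SE 0.44) that did not pass; both were highest in replicate 3 of each ENU group, at 32.4 and 17.8 FPKM for Cyp2c40 and 13.2 and 5.46 FPKM for Cyp2c69, Tert-/- first.

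The ENU effects of the 2 genotypes were then set against each other. By limma 0 of 36 members and 0% of all tested genes passed for the difference between them, with 3 members and 844 genes under an unadjusted p of 0.05, and the test on recovered reads also called 0 members. The 3 were Cyp2g1, an olfactory mucosa enzyme (difference of log2 values -1.08, SE 0.39), Cyp2a5 (-1.72, SE 0.62, unadjusted p = 0.0176, adjusted p = 0.670) and Cyp2j6 (-0.50, SE 0.22). For Cyp2a5 the ENU estimate was -0.68 (SE 0.44) in Tert-/- and 1.04 (SE 0.44) in wild type, and neither passed (adjusted p = 0.318 and 0.350 by limma).

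The contrast of Tert-/- with wild type in saline asked whether loss of telomerase alone changed these genes. Of 36 members 1 rose and 0 fell, where 5.01% of all tested genes were called (0.748% higher and 4.26% lower). The median log2 difference was 0.05 over members and -0.19 over all genes. The direction over the members depended on the scale. The estimate was above 0 for 21 of 36 members, for 31 after median-ratio rescaling and for 19 after quantile normalization. The member was Cyp2a5, the coumarin 7-hydroxylase. It had 742, 900.2 and 1385 FPKM in Tert-/- saline livers, against 238, 266 and 350.5 FPKM in wild-type saline livers. Every Tert-/- saline library was above every wild-type saline library, by a log2 difference of 1.79 (SE 0.44, adjusted p = 0.0423 by limma). After ENU the groups overlapped, at 819, 262 and 1048 FPKM in Tert-/- livers against 498, 482 and 816 FPKM in wild-type livers, with Tert-/- ENU replicate 2 the lowest of the 6.

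The clock state of the libraries moved with this result. Dbp and Arntl are clock genes that peak at opposite times of day, and Cyp2a5 is known as a rhythmic gene under Dbp and its relatives in mouse liver. The log2 ratio of Dbp to Arntl was 6.46, 8.29 and 7.09 in Tert-/- saline livers, against -2.73, 0.15 and -2.26 in wild-type saline livers. It was 4.69, 3.43 and 6.29 in Tert-/- ENU livers, against -0.59, 4.51 and 4.70 in wild-type ENU livers. In saline Dbp was higher in Tert-/- by a log2 difference of 4.26 (SE 0.74, adjusted p = 0.0174 by limma) and Arntl was lower, with a log2 difference of -2.68 (SE 0.40, adjusted p = 0.0154). With this ratio as a covariate the Cyp2a5 log2 difference was 0.53 (SE 0.96, adjusted p = 1), and the call held in 9 of 22 settings. It ended without Tert-/- ENU replicate 1 or 3, Tert-/- saline replicate 1 or 3, wild-type ENU replicate 1 or 2, or any wild-type saline replicate (log2 1.54 to 1.99). In saline the ratio separates the genotypes without overlap, so the parts of clock state and genotype in the Cyp2a5 difference cannot be told apart there. The covariate also ended ENU calls: Cyp2c29 in each genotype alone, Cyp2d26 in Tert-/-, and the averaged calls of Cyp2c55, Cyp2c70 and Cyp2r1. The other averaged ENU calls held with it, as did the Tert-/- calls of Cyp2a22 and Cyp2c67. All genes then gave 0.217% in wild type, 1.71% in Tert-/- and 10.4% averaged.

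**Figure D5:**
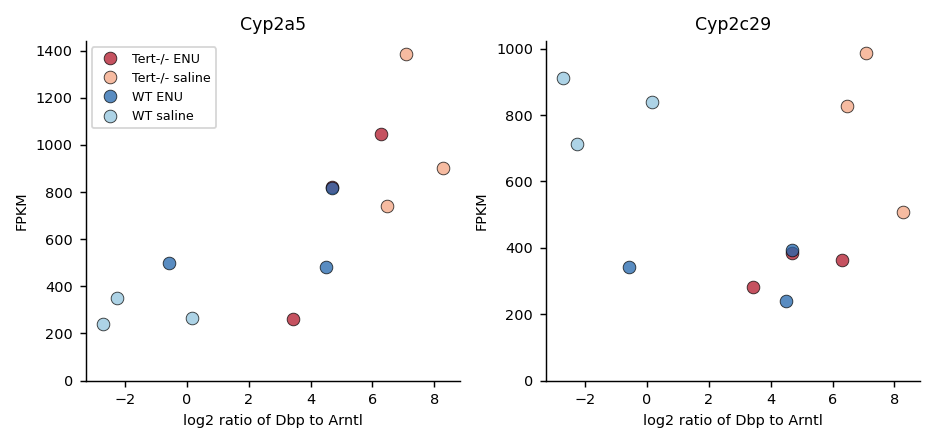
FPKM of Cyp2a5 (left) and Cyp2c29 (right) on the y axis against the log2 ratio of Dbp to Arntl on the x axis, 1 point per library, coloured by group. The Tert-/- saline libraries sit at ratios of 6.46 to 8.29 with Cyp2a5 at 742 to 1385 FPKM and the wild-type saline libraries at -2.73 to 0.15 with 238 to 350.5 FPKM; 1 Tert-/- ENU and 1 wild-type ENU point nearly coincide. In Cyp2c29 the saline libraries of both genotypes lie above the ENU libraries.

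Of the remaining members most abundant in their subfamily, Cyp2j5, an arachidonic acid epoxygenase, averaged 223 ± 14.2 FPKM in Tert-/- ENU, 231 ± 86.6 in Tert-/- saline, 207 ± 14.9 in wild-type ENU and 236 ± 14.0 in wild-type saline livers. Cyp2u1, a fatty acid hydroxylase, averaged 6.57 ± 1.67, 5.58 ± 1.77, 7.52 ± 1.68 and 5.48 ± 2.62 FPKM in the same order (SD, n = 3 each). Neither passed in any comparison.

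The next largest genotype estimates in saline did not pass. Cyp2c40 had 1.05 (SE 0.64, adjusted p = 0.343 by limma), Cyp2g1 had 0.90 (SE 0.28, adjusted p = 0.0822) with no overlap (1.08, 1.25 and 2.36 against 0.406, 0.148 and 0.483 FPKM, Tert-/- first), Cyp2c55 had -0.77 (SE 0.32, adjusted p = 0.177), Cyp2b10 had -0.54 (SE 0.48) and Cyp2d11 had -0.34 (SE 0.31). In all, 4 members were higher and 1 was lower without overlap, where all genes gave 6.42% and 19.5%. Among markers of other liver cells 1 of 6 Kupffer cell markers (Adgre1), 1 of 6 of sinusoidal endothelium (Oit3) and 1 of 5 of stellate cells (Reln) fell in Tert-/- saline livers. Estimates below 0 numbered 6 of 6 for Kupffer cells, 6 of 6 for sinusoidal endothelium and 5 of 5 for stellate cells. Their medians were -1.03, -0.69 and -0.62, beside -0.19 for all genes. Of 3 tested cholangiocyte markers 0 passed by limma, with 3 of 3 estimates below 0 (median -0.57). Of 5 erythroid markers 0 passed by limma, with 5 of 5 estimates above 0. The 6 Kupffer cell markers summed to 99.1 to 205 FPKM in Tert-/- saline against 169 to 320 in wild-type saline livers, the 6 of sinusoidal endothelium to 74.3 to 92.3 against 104 to 129, and the 5 of stellate cells to 41.6 to 57.4 against 78.0 to 98.6. Their part in the result was not tested.

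Tert-/- and wild-type livers were then compared after ENU. By limma 0 of 36 members and 0% of all tested genes passed, with 0 members and 541 genes under an unadjusted p of 0.05, and the test on recovered reads called 0 members too. The estimates ran from -0.29 (SE 0.26) for Cyp1a2 to 0.68 (SE 0.63) for Cyp2c69, and 1 member, Cyp3a25, was higher and 0 were lower without overlap, where all genes gave 5.56% and 10.4%. Cyp2c37 had 0.53 (SE 0.31), Cyp2c40 0.54 (SE 0.64), Cyp2f2 -0.21 (SE 0.31) and Cyp2g1 -0.18 (SE 0.28). Averaged over treatments, 0 members passed by limma (1 at an unadjusted p under 0.05, and 0 in the test on recovered reads), where 3.64% of all genes were called. Estimates above 0 numbered 24 of 36 there, 33 after median-ratio rescaling and 27 after quantile normalization.

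The regulators and partners of these enzymes were read from lists chosen for their roles. Unless another comparison is named, each count below is for ENU averaged over genotypes, where 11.3% of all tested genes rose and 2.73% fell. The lists were counted on the deposited scale only. Of 16 tested regulators and coregulators around CAR and PXR, 7 rose and 0 fell, with a median log2 difference of 0.44 beside 0.17 for all genes. By genotype, 4 of 16 rose in Tert-/- livers (median 0.58 beside 0.24 for all genes, of which 8.13% rose). In wild type 0 of 16 rose (median 0.23 beside 0.1, with 0.748% of all genes rising). In saline 12 of the 16 estimates were below 0 in Tert-/- against wild type (median -0.47 beside -0.19 for all genes). Nr1i3, the gene of CAR, had 37.7, 26.1 and 49.0 FPKM in Tert-/- ENU against 13.8, 12.8 and 26.5 in Tert-/- saline livers, and 19, 26.4 and 28.8 FPKM in wild-type ENU against 14.4, 11.2 and 13.3 in wild-type saline livers. Its averaged log2 fold change was 0.97 (SE 0.20, adjusted p = 0.0115 by limma), and that of Nr1i2, the gene of PXR, was 0.43 (SE 0.11, adjusted p = 0.0210). Among members described above as induced through CAR or PXR or by phenobarbital, Cyp2b10, Cyp2c29 and Cyp2c55 fell in the same contrast. The PXR-responsive Cyp3a11, at -0.9, did not pass. These are only the members so described, and no full list of inducible members was counted. Other Cyp2c members did not pass, among them Cyp2c37 (-0.14), Cyp2c50 (-0.07) and Cyp2c38 (0.22), and Cyp2c67 rose. Cyp2b10 and Cyp2c55 passed in neither genotype alone, and their averaged calls held in 17 and 10 of 21 settings. A link between these changes and the regulators was not tested.

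Outside the P450 genes, 4 of 18 tested CAR and PXR targets rose and 1 fell after ENU averaged over genotypes (median 0.40). Aldh1a7 had 0.68 (SE 0.13) and Aldh1a1, a retinal dehydrogenase, 0.66 (SE 0.14), while the carboxylesterase Ces2a had -0.95 (SE 0.20, adjusted p = 0.0117 by limma). Of 8 electron donors 2 rose and 0 fell. Por, the reductase that feeds electrons to every microsomal P450, had 699, 847 and 966 FPKM in Tert-/- ENU livers, against 512, 400.0 and 481 FPKM in Tert-/- saline livers. In wild-type livers it had 420.0, 431 and 771 FPKM after ENU, against 388, 303 and 262 FPKM after saline. Every ENU library was above every saline library of its genotype, and the averaged log2 fold change was 0.78 (SE 0.17, adjusted p = 0.0143 by limma). Of 12 genes of heme synthesis and breakdown 2 rose, among them Cpox, coproporphyrinogen oxidase, by 1.40 (SE 0.33). Cpox had 2.0 (SE 0.47) in Tert-/- and 0.79 (SE 0.47, not past the threshold) in wild type. In the aryl hydrocarbon receptor list 2 of 7 rose, and Ahr itself had 0.73 (SE 0.20, adjusted p = 0.0327 by limma). Ahr had 1.08 (SE 0.28) in Tert-/- and 0.38 (SE 0.28, not past the threshold) in wild type.

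Zonation and sex markers gave mixed counts under the same contrast. Of 19 pericentral markers outside the P450 genes 3 rose and 2 fell (median 0.06). Glul, glutamine synthetase of the last hepatocytes before the central vein, had -0.64 (SE 0.13, adjusted p = 0.00935 by limma). Axin2, a Wnt target, had 0.94 (SE 0.29), with 1.66 (SE 0.41) in Tert-/- and 0.22 (SE 0.41, not past the threshold) in wild type. Of 19 periportal markers 1 rose and 5 fell (median -0.17), among them Ass1 of the urea cycle at -0.77 (SE 0.15). Of 16 male-biased genes 1 rose and 3 fell, and of 6 tested female-biased genes 0 passed by limma (3 at an unadjusted p under 0.05). Of 8 hepatocyte markers 2 fell, Ttr with a log2 fold change of -0.63 (SE 0.14) and Serpina1c with -0.60 (SE 0.15), with a list median of -0.43. Of 9 genes of the growth hormone and Stat5 axis 1 rose. Of 14 inflammation genes, which are cytokines and their signalling genes together with acute phase products such as Crp, Saa1 and Hp, 0 rose and 1 fell, the cytokine gene Il1b. Of 12 clock genes 3 rose and 1 fell.

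Markers of other cells moved with ENU as well. Of 5 tested erythroid genes 4 fell (median -2.68): the list summed to 105 to 124 FPKM in Tert-/- ENU against 187 to 837 in Tert-/- saline livers, and to 127 to 143 FPKM in wild-type ENU against 213 to 411 in wild-type saline livers. Of 6 Kupffer cell markers 1 fell (Cd5l), with sums of 72.8 to 95.8 FPKM in Tert-/- ENU against 99.1 to 205 in Tert-/- saline livers and 83.5 to 239 FPKM in wild-type ENU against 169 to 320 in wild-type saline livers. Of 6 markers of sinusoidal endothelium 3 fell (Stab2, Clec4g and Oit3), of 5 stellate cell markers 1 fell (Reln), and of 3 tested cholangiocyte markers 0 passed by limma (0 at an unadjusted p under 0.05). Of the 2 tested intestine genes 1 rose, Lgals4, which makes a galectin, with a log2 fold change of 1.83 (SE 0.15), and the 1 tested pancreas gene did not pass. The 4 Y-linked transcripts did not pass. The part of these cells in the P450 results was not tested.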

How the data were processed

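Per the labels' protocols, liver RNA of 12 mouse libraries (4 groups of 3) was extracted with TRIzol and made into NEBNext Ultra libraries. The submitters' processing notes name HISAT2, HTSeq and mm10. The sources used here give no versions, annotation or strand setting, so antisense overlaps cannot be told apart. The authors deposited FPKM values for 49584 genes; 1 emptied line was not analysed here.

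Whole reads were recovered for 26523 of 26524 expressed genes within 0.01, from the mean GENCODE M21 transcript length (22372 genes) or a searched length (4151), giving 30053737 to 43680169 reads per library. Replicates of each group differed beyond sampling noise (lowest chi-square per gene 38.3), so none was merged. Spread between libraries sets the errors more than depth does, except for low members that rest on few reads (6 at the lowest for Cyp2g1).

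Genes with at least 1 FPKM in 3 of 12 libraries were kept (12434). A group-means model on log2(FPKM + 1) was fitted to all 12 libraries with limma 3.58.1 (mean-variance trend) in R 4.3.3, with 7 contrasts. Tests were two-sided, with p-values adjusted by Benjamini-Hochberg over all tested genes, and adjusted p-values under 0.05 were called. Fold changes are on the log2(FPKM + 1) scale, which understates the change of low genes. The steps were tested on simulated data.

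Alternatives were a pseudocount of 0.1, no filter, 1 FPKM in 6 libraries, median-ratio rescaling, quantile normalization, voom on recovered reads, only the groups compared, a replicate block, the Dbp to Arntl ratio as covariate, library weights and leaving out each library. The voom test scaled the libraries by the same factors as the median-ratio rescaling. Members and the 22 gene lists were chosen with earlier results of these data known, and the lists' members got no set test. Named were members past the threshold, the most abundant tested member of each subfamily, Cyp2c29 and Cyp2a5, and the 3 largest estimates each way in the 4 comparisons of a pair of groups; of a list, up to 3 past the threshold with the largest statistic, otherwise the 2 most abundant. Nr1i2, Ahr, Dbp, Arntl, Cyp2c39, Cyp2d12, Cyp2j6 and other genes named for their role or place were chosen after their values were seen. Sequence comes from the RefSeq promoter table; motif matches were exact, on both strands.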

Additional observations from a re-analysis of the deposited data

Results flagged for a closer look

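For Cyp2j6 every Tert-/- ENU library was below the Tert-/- saline mean and every wild-type ENU library was above the wild-type saline mean. It had 22.5, 21.6 and 21.7 FPKM in Tert-/- ENU against 22.2, 19.3 and 29.7 in Tert-/- saline livers, and 23.0, 22.6 and 22.3 FPKM in wild-type ENU against 15.2, 17.1 and 17.8 in wild-type saline livers. The Tert-/- ENU values lie inside the Tert-/- saline range, whose mean is raised by replicate 3. The log2 differences were -0.09 (SE 0.16) in Tert-/- and 0.42 (SE 0.16) in wild type, neither past the threshold, and their difference was -0.50 (SE 0.22), with an unadjusted p of 0.0450 and an adjusted p of 0.731 by limma, so it did not pass. The cause was not tested.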

How the results depend on the processing

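The counts are of members past the threshold by limma, rising and falling together, and the share of all genes called moved as well. For ENU in Tert-/- livers the count of 4 became 2 with no filter, 0 with only the groups compared, 2 with the clock covariate and 10 with library weights, and ran from 1 (without Tert-/- ENU replicate 3) to 6 (without Tert-/- saline replicate 2) as each library was left out. All genes there gave 9.58% as reported, 2.75% with no filter, 0.45% with only the groups compared, 1.71% with the clock covariate, 25.5% with library weights, 3.23% without Tert-/- ENU replicate 3 and 17.1% without Tert-/- saline replicate 2. For ENU in wild type the count of 1 became 0 with no filter, 2 with median-ratio rescaling, 3 with quantile normalization, 3 with voom on recovered reads, 11 with only the groups compared, 3 with the replicate block, 0 with the clock covariate and 11 with library weights, and ran from 0 to 10 as each library was left out. All genes there gave 0.997% as reported, 15.1% with library weights and 0.217 to 8.94% in the other named settings that keep every library. As each library was left out, all genes gave 0.394 to 10.6%. For genotype in saline the count of 1 became 0 with no filter, 2 with median-ratio rescaling, 2 with quantile normalization, 2 with voom, 0 with only the groups compared, 0 with the clock covariate and 3 with library weights, with 0 to 2 as each library was left out. All genes there gave 5.01% as reported, 20.5% with library weights, 0.00804% with only the groups compared and 0% with the clock covariate. They gave 1.06% with no filter, 3.24% with median-ratio rescaling, 3.94% with quantile normalization and 2.72% with voom. As each library was left out they gave 0.0322 to 12.9%. The averaged ENU count of 10 ran from 6 (without Tert-/- ENU replicate 1) to 14 (without Tert-/- saline replicate 2), where all genes gave 6.93% and 27.7%. For genotype averaged over treatments the count of 0 became 2 with library weights and 1 without Tert-/- saline replicate 2, where all genes gave 22.2% and 13.1%. Of 760 values of named members under alternatives, 653 kept their direction and side of the threshold, 84 lost a call, 17 gained one and 6 reversed. With the clock covariate in saline Cyp2c40 was at -1.0 and Cyp2c55 at 0.46. For Tert-/- against wild type after ENU, leaving out each library gave -0.19 (without Tert-/- ENU replicate 3) to 1.13 for Cyp2c40, -0.09 (without the same library) to 1.36 for Cyp2c69, -0.44 to 0.12 (without Tert-/- ENU replicate 2) for Cyp2f2 and -0.46 to 0.05 (without Tert-/- ENU replicate 1) for Cyp2g1. The cause was not tested. Whether the replicate numbers pair the libraries is not settled. Over all comparisons, correlations of same-numbered deviations ran from -0.128 to 0.208, and those of different numbers from -0.255 to 0.237. For ENU in wild type they were 0.099 to 0.165 for the same number and -0.128 to 0.012 for different numbers. With the replicate block the wild-type ENU count of 3 stands beside 4 in Tert-/-, 1 for genotype in saline and 12 for averaged ENU. All genes gave 0.869%, 7.67%, 2.77% and 12.5% in the same order. Depth limits the low members: Cyp2a22 rests on 12 reads in its lowest library.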
